A study of Homo sapiens with 13 samples.

Results

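EGFR, 3 of the ligands that activate it (EREG, AREG and HBEGF) and the receptor tyrosine kinase MET were examined in MDA-MB-231, an established human breast cancer cell line, for binding of 4 transcriptional regulators: the coactivators YAP and TAZ, their DNA-binding partner TEAD4, and JUN. A peak was counted for a gene when its summit lay within 100 kb of the hg19 gene start, and a summit near both EREG and AREG was given to the nearer start. Of the 50467 peaks in the 4 deposited lists, 62 met this rule: 11 of 7709 YAP peaks, 12 of 9798 TAZ peaks, 10 of 8406 TEAD4 peaks and 29 of 24554 JUN peaks. Peaks that overlapped by at least 1 bp were merged into regions, and the 62 peaks formed 32 of the 28100 regions in all.

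The series profiled 13 chromatin immunoprecipitation libraries of MDA-MB-231 cells grown in serum-containing medium: 2 replicates for each of these regulators, 2 with rabbit IgG and 3 with mouse IgG. The submitters gave 1 peak list for both replicates of a factor, so no value below has a spread between replicates, and the read depth is unknown here. YAP and TAZ were called against the rabbit IgG libraries, and TEAD4 and JUN against mouse IgG. The antibody host and the factor cannot be told apart between those pairs. Each peak carries the authors' fold enrichment over IgG. It is given below with its place in its own list as a top percentage (1% means that 1% of the list was as enriched or more). Ranks describe a peak within its list only. All values come from 1 cell line, and binding was assigned to genes by distance alone.

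EGFR is a receptor tyrosine kinase at the cell surface. Epiregulin (EREG), amphiregulin (AREG) and heparin-binding EGF-like growth factor (HBEGF) are made as membrane-anchored precursors, and once shed by proteases they bind EGFR on the same or on neighbouring cells. MET is the receptor of hepatocyte growth factor, and both receptors signal through the RAS-MAPK and PI3K pathways. YAP and TAZ, the coactivators that the Hippo kinases restrain, reach DNA through TEAD proteins, while JUN is a subunit of AP-1, the factor complex downstream of MAPK signalling. AREG is a textbook target gene of YAP.

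The 5 genes differed in which factors were listed near them. EGFR had 25 peaks, with 6 of YAP, 7 of TAZ, 5 of TEAD4 and 7 of JUN. HBEGF had 16, of which 8 were of JUN, 3 of YAP, 3 of TEAD4 and 2 of TAZ. MET had 12, with 9 of JUN and 1 of each other factor. AREG had 6, with 3 of JUN and 1 of each other factor. EREG had 3, with 2 of JUN, 1 of TAZ and none of YAP or TEAD4.

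**Figure D1:**
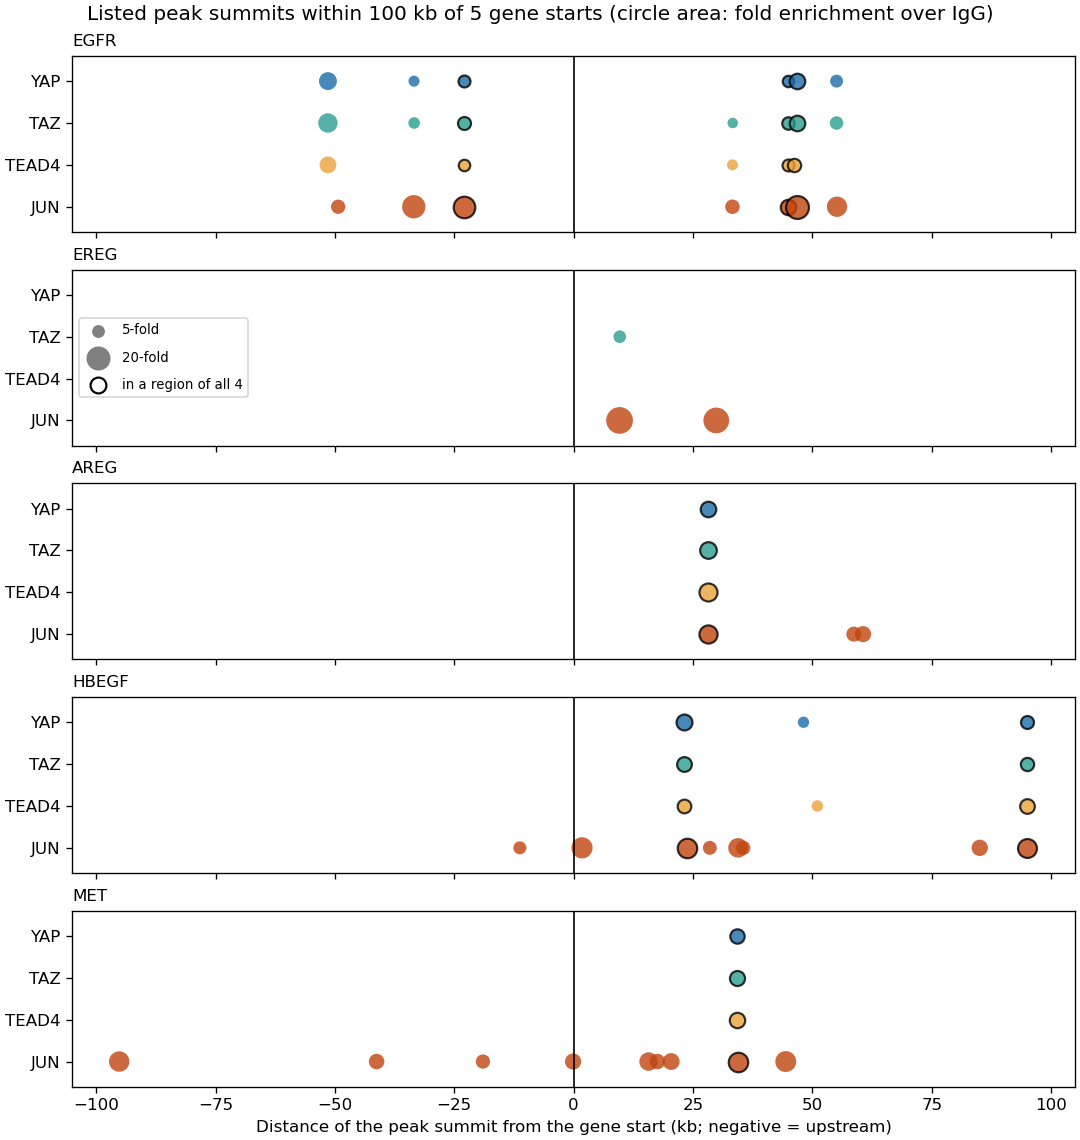
Each circle is the summit of a listed peak, placed by its distance in kb from the gene start (horizontal axis, negative upstream along the gene's strand) and by its list (vertical axis), with area proportional to the authors' fold enrichment over IgG. Circles with a black outline lie in regions that hold all 4 factors, of which EGFR had 3, HBEGF 2, AREG and MET 1 each and EREG none.

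Most of the summits stood away from the gene start. A single peak of the 62, that of JUN at MET, had its summit within 1 kb of the start, and 4 lay within 10 kb. Of the 32 regions, 9 were upstream and 23 downstream. By the gene lengths in the RefSeq gene table, 11 of the 23 downstream regions lay within the length of their gene and 12 past its end. The 11 comprised the 4 downstream regions of EGFR, the 5 of MET, 1 of EREG and 1 of HBEGF, whereas all 3 regions of AREG were past its end. That table is on another build (GRCh38.p14), so only lengths and gene order were taken from it.

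Regions of all 4 factors made up 7 of the 32 (21.9%, exact binomial 95% interval 9.28 to 40.0, counting error only), and 15.2% of all 28100 regions were of this kind. JUN alone was found at 18 of the 32 (56.3%, 37.7 to 73.6), against 58.0% of all regions. At least 2 factors were present at 12 of the 32, against 36.7% of all regions. Over the 5 genes together these shares were therefore near those of the whole series. The share with JUN alone depended on the length of the JUN list: when only the 7709 peaks with the best p of every list were kept, it was 22.2% (4 of 18 regions). The share over all regions for lists cut in this way is not given here, and the 58.0% belongs to the full lists.

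The split by gene was uneven. At least 2 factors were present at 36.7% of all regions. At EGFR 7 of 8 regions held at least 2 (exact binomial 95% interval 47.3 to 99.7), and 1 held JUN alone. At MET 1 of 9 regions held at least 2 factors (0.281 to 48.2), and at HBEGF 2 of 10 (2.52 to 55.6). The intervals of MET and HBEGF hold the share of all regions. The contrast also depends on the length of the JUN list. Lists of equal length (7709 peaks) kept 2 of the 9 JUN peaks of MET and 4 of the 7 of EGFR. EGFR had all 4 factors at 3 regions (15.2% of all regions) and JUN alone at 1 (58.0%). The other sets were YAP with TAZ and JUN at 2 regions (4.44%), YAP with TAZ and TEAD4 at 1 (4.30%), and TAZ with TEAD4 and JUN at 1 (2.04%). These contrasts rest on 8 to 10 regions per gene and were not tested, since neighbouring regions are not independent and the genes were chosen.

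**Figure D2:**
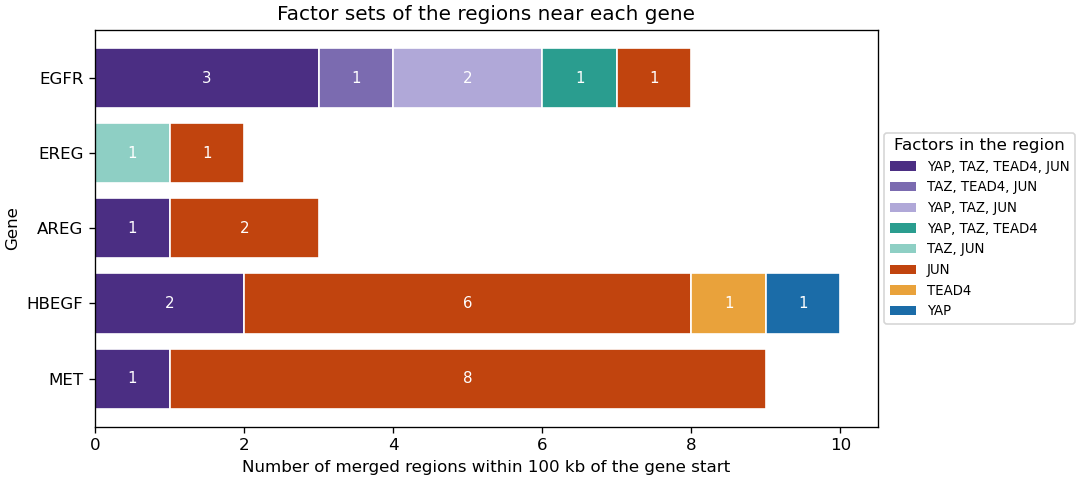
Bars count the merged regions within 100 kb of each gene start (horizontal axis, number of regions; vertical axis, gene), divided by the set of factors found in the region. Of the 8 EGFR regions 1 held JUN alone, against 8 of the 9 MET regions and 58.0% of all regions.

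The overlaps between lists near these genes were set beside those of the whole lists. Of the 11 YAP peaks 10 overlapped a TAZ peak (92.4% of all YAP peaks did) and 9 overlapped a JUN peak (77.0% of all). TEAD4 overlapped 7 of the 11 YAP peaks (74.6% of all). Of the 12 TAZ peaks 11 overlapped JUN (74.7% of all), 10 overlapped YAP (72.5% of all) and 9 overlapped TEAD4 (67.0% of all). Of the 10 TEAD4 peaks 9 overlapped TAZ (78.8% of all), 8 overlapped JUN (68.3% of all) and 7 overlapped YAP (68.7% of all). Of the 29 JUN peaks 9 overlapped YAP (23.9% of all), 11 overlapped TAZ (29.5% of all) and 8 overlapped TEAD4 (23.1% of all).

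Peak density was set beside that of 14635 windows of 200 kb laid end to end over the spans covered by the lists. A window had a mean of 0.527 YAP, 0.669 TAZ, 0.574 TEAD4 and 1.68 JUN summits. The 6 YAP summits of EGFR were matched or exceeded in 0.458% of windows, its 7 TAZ summits in 0.547%, its 5 TEAD4 summits in 1.26% and its 7 JUN summits in 5.08%. At MET the 9 JUN summits were matched in 2.08% of windows, but its 1 YAP summit in 31.2%, 1 TAZ summit in 35.6% and 1 TEAD4 summit in 32.6%. At HBEGF the 8 JUN summits were matched in 3.17% of windows, the 3 YAP summits in 5.30%, the 3 TEAD4 summits in 6.00% and the 2 TAZ summits in 16.0%. EREG and AREG were nearer to an ordinary window. The 2 JUN summits of EREG were matched in 37.2% of windows and its 1 TAZ summit in 35.6%. Within 100 kb of AREG, the EREG summits included, the 5 JUN summits were matched in 11.3% of windows, the 2 TAZ summits in 16.0%, the 1 YAP summit in 31.2% and the 1 TEAD4 summit in 32.6%. The windows include stretches without genes, so these shares describe density along the genome and not density near genes.

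EGFR, the receptor, had regions on both sides of its start (chromosome 7, 55086725, plus strand), from 51.5 kb upstream to 55.2 kb downstream, with no listed summit in the 22.9 kb before it or the 33.3 kb after it. The strongest YAP and TAZ binding of all 5 genes was in the region farthest upstream (55034878 to 55035526). There YAP was enriched 12.9-fold (rank 774, top 10.0%), TAZ 15.0-fold (rank 538, top 5.49%) and TEAD4 11.3-fold (top 15.7%). The 3 summits lay within 12 bp of each other, and no JUN peak overlapped them. The nearest JUN peak was a separate one 49.3 kb upstream of the start (55036907 to 55037698), with 8.15-fold enrichment, in the weaker part of the JUN list (top 88.9%).

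The next EGFR region towards the gene showed the opposite balance. At 33.4 kb upstream (55052792 to 55053889) JUN was enriched 21.8-fold (rank 1199, top 4.88%), the highest JUN enrichment near EGFR, whereas YAP was enriched 4.91-fold (top 95.2%) and TAZ 5.40-fold (top 81.6%). TEAD4 was not listed there. The region nearest to the start, 22.9 kb upstream (55063427 to 55064305), held all 4 factors with summits within 29 bp. Its JUN peak again stood highest in its own list, at 18.7-fold (top 11.2%). TAZ was enriched 6.80-fold (top 52.8%), YAP 5.75-fold (top 81.5%) and TEAD4 5.31-fold (top 86.7%). By p the places were top 6.13% for JUN, 28.2% for TAZ, 45.2% for YAP and 76.8% for TEAD4.

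Inside EGFR, 4 regions fell between 33.3 and 55.2 kb downstream of the start. The 4-factor region with the best mean rank near EGFR lay 46.2 to 46.9 kb downstream (55132522 to 55134041), with JUN at 21.0-fold (top 6.11%), TAZ at 9.75-fold (top 22.0%), YAP at 9.72-fold (top 24.0%) and TEAD4 at 7.15-fold (top 50.9%). Its YAP, TAZ and JUN summits lay close together, but the TEAD4 summit was 665 bp from that of TAZ and 688 bp from that of YAP, and the TEAD4 and YAP peaks did not themselves overlap. By a rule that joins summits within 200 bp, or one that asks for a reciprocal overlap of 50%, EGFR had 2 regions of all 4 factors in place of 3.

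The other regions inside EGFR were weaker for YAP and TAZ. At 44.8 kb (55131292 to 55131759) all 4 factors were listed, with summits within 50 bp, with JUN at 9.61-fold, TAZ at 6.25-fold, TEAD4 at 5.73-fold and YAP at 5.26-fold. At 55.1 kb (55141428 to 55142282) YAP and TAZ shared a summit to the base, 92 bp from that of JUN, and JUN was enriched 16.5-fold. At 33.3 kb (55119566 to 55120507) TAZ (4.40-fold), TEAD4 (4.83-fold) and JUN (8.44-fold) all stood low in their lists, at top 97.0%, 94.6% and 86.1%, and YAP was not listed. With the stronger 50% of each list, the number of EGFR peaks fell from 25 to 14 and that of its 4-factor regions from 3 to 1.

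**Figure D3:**
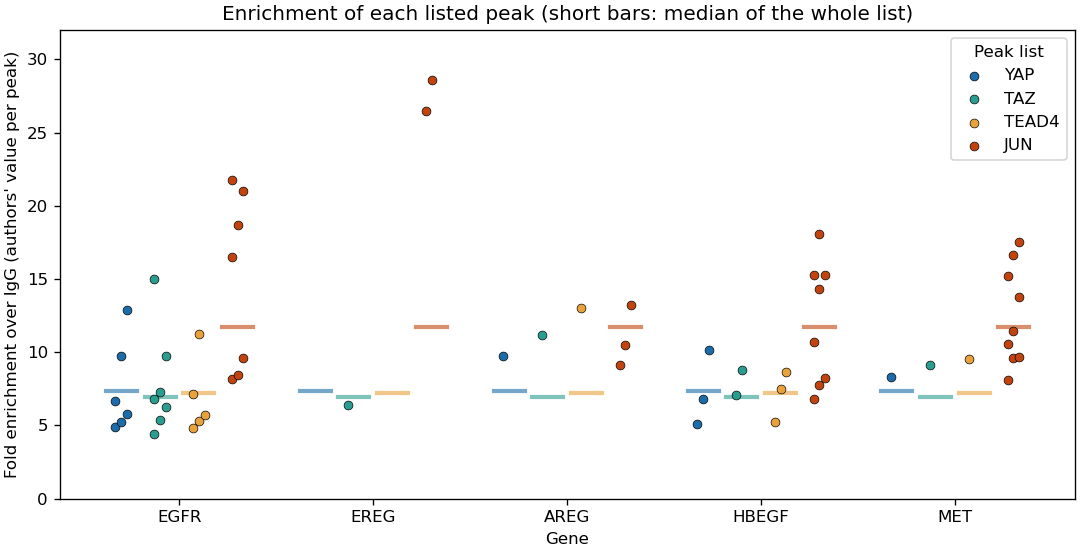
Each point is a listed peak, plotted by gene (horizontal axis) and by the authors' fold enrichment over IgG (vertical axis, linear from 0), and short bars mark the median of the whole list (JUN 11.7, YAP 7.35, TEAD4 7.20, TAZ 6.96). The 2 JUN peaks of EREG, at 28.6 and 26.4, lie above every other peak shown.

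EREG and AREG are adjacent genes on chromosome 4, with EPGN before them and BTC after them in the RefSeq gene order, all encoding EGF family ligands. EREG (start 75230860, plus strand) had no listed summit upstream of its start within 100 kb, and the nearest upstream was a JUN summit 248 kb away. Its 2 JUN peaks were the most enriched of all 29. The peak 9.62 kb downstream of the start (75240017 to 75241191) reached 28.6-fold (rank 152 of 24554, top 0.619%), and that 29.9 kb downstream (75260393 to 75261033) reached 26.4-fold (rank 291, top 1.19%). The first lay within the gene's length and the second past its end.

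YAP and TEAD4 were not listed near EREG. TAZ was listed at the first of its JUN peaks only, at 6.38-fold (rank 5880, top 60.0%) with its summit 36 bp from that of JUN, a set of TAZ and JUN alone that made up 3.98% of all regions. The peak names carry numbers that ascend along every chromosome. If these count all candidate peaks, at most 10 YAP and 9 TEAD4 candidates were left out of the lists between the listed peaks that flank the EREG window, so weaker YAP or TEAD4 signal there was not measured here. Ranked by p in place of enrichment, the best JUN peak of EREG stood at top 3.37% and the other at top 6.06%.

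AREG (start 75310851, plus strand) had 1 region of all 4 factors, 28.2 kb downstream (75338703 to 75339301), past the end of the gene. TEAD4 was enriched 13.0-fold (rank 804, top 9.56%), the most enriched TEAD4 peak of the 10, although by p it ranked 813, behind the EGFR peak 51.5 kb upstream at 727. TAZ was enriched 11.1-fold (top 14.4%), YAP 9.73-fold (top 23.8%) and JUN 13.2-fold (top 37.7%). The 4 summits lay within 8 bp, the tightest of the 7 regions of all 4 factors. TEAD4 thus stood highest in its list and JUN lowest, whereas the 2 regions near EREG held JUN peaks from the top 1.19% of the JUN list and no TEAD4.

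The remaining AREG peaks were 2 of JUN alone at 58.7 kb (9.10-fold, top 79.0%) and 60.6 kb (10.5-fold, top 62.3%). No summit was listed in the 28.2 kb between the AREG start and the 4-factor region, or in the 50.1 kb before the start. With lists of equal length (7709 peaks) AREG had 3 peaks in place of 6 and no region of all 4 factors, because its JUN peaks are not among the strongest 7709 by p. The hg19 assembly carries a near-identical second copy of AREG, annotated as AREGB, which the RefSeq gene table gives as a synonym of AREG. Reads from such copies cannot be placed uniquely, and whether this touched the lists at AREG was not tested.

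HBEGF (chromosome 5, start 139726216, minus strand) had 10 regions, 9 of them downstream of its start. Of those 9, 1 lay within the length of the gene and 8 past its end, both 4-factor regions among them. PFDN1 and CYSTM1 lie on that side in the RefSeq gene order. Nearest to the HBEGF start was a JUN peak 1.75 kb downstream (139724059 to 139725100), within the gene. It was enriched 18.0-fold (rank 3253, top 13.2%), the strongest JUN peak near HBEGF. No other factor was listed there. Upstream there was a single peak, of JUN, at 11.3 kb, with 6.83-fold enrichment (top 98.0%).

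At HBEGF 2 regions held all 4 factors. The better ranked lay 23.1 to 23.7 kb downstream (139702184 to 139704056) and was the widest of the 32 regions, at 1873 bp. YAP was enriched 10.2-fold (top 21.0%), TAZ 8.77-fold (top 29.0%), TEAD4 7.52-fold (top 45.9%) and JUN 15.3-fold (top 25.0%). The YAP, TAZ and TEAD4 summits lay 23113, 23153 and 23158 bp from the start, and the JUN summit at 23702 bp, so that JUN was 589 bp from YAP. By the rule that joins summits within 200 bp this region was not counted, which left HBEGF with 1 region of all 4 factors.

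The other lay 94.9 kb downstream (139630959 to 139631698), with 4 summits within 38 bp and enrichments between 6.79 (YAP) and 14.3 (JUN). It was the last listed region inside the 100 kb limit, and a JUN summit 100.1 kb downstream fell just outside. Only here among the 5 genes were YAP and TEAD4 each listed alone, both weakly: YAP at 48.1 kb (5.13-fold, top 92.7%) and TEAD4 at 51.0 kb (5.26-fold, top 87.6%). A set of YAP alone made up 0.544% of all regions and TEAD4 alone 3.04%. The other 4 downstream peaks were of JUN alone, from 7.77-fold at 28.5 kb to 15.3-fold at 34.4 kb. Within 50 kb of the start HBEGF had 10 peaks in place of 16.

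MET (chromosome 7, start 116312459, plus strand) has CAV2 and CAV1 before it and CAPZA2 after it in the RefSeq gene order. JUN alone was found at 8 of its 9 regions (88.9%, exact binomial 95% interval 51.8 to 99.7), an interval that holds the 58.0% of all regions, and the JUN list was the longest of the 4. Its JUN peaks ran from 95.2 kb upstream to 44.4 kb downstream, with 4 upstream and 5 within the gene. The most enriched was that at 44.4 kb (116356655 to 116357164), at 17.5-fold (rank 3719, top 15.1%), followed by that 95.2 kb upstream at 16.7-fold (top 18.2%). Neither overlapped a peak of another factor.

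The single MET region of all 4 factors lay 34.3 kb downstream (116346519 to 116347216), inside the gene. YAP was enriched 8.30-fold (top 37.0%), TAZ 9.09-fold (top 26.4%), TEAD4 9.53-fold (top 25.4%) and JUN 15.2-fold (top 25.2%), and the 4 summits lay within 66 bp. By enrichment TAZ, TEAD4 and JUN thus stood at nearly the same place in their lists. By p they were further apart, at top 38.1%, 34.5% and 28.3%. With lists of equal length MET had 5 peaks in place of 12, of which 2 were of JUN in place of 9, beside 1 of each other factor. With the stronger 50% of each list it had 7 peaks, and the 4-factor region was counted under both. The first listed summit beyond the 100 kb limit was of JUN, 100.3 kb downstream, and within 200 kb of the start MET had 30 peaks and 3 regions of all 4 factors.

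At the MET promoter JUN was the only factor listed. Its peak (116311713 to 116313211, 1499 bp wide) covered the gene start, with the summit 115 bp upstream, at 10.5-fold (rank 15138, top 61.7%). The 250 bases before RefSeq's own start of MET are shown because MET was the only one of the 5 genes with a peak at its promoter. They come from RefSeq on GRCh38.p14 (chr7:116671946-116672195, plus strand), whose start need not be the same base as the hg19 start used for the peaks, and are written in lower case 5′ to 3′, with matches to the motifs below in capitals.
MET: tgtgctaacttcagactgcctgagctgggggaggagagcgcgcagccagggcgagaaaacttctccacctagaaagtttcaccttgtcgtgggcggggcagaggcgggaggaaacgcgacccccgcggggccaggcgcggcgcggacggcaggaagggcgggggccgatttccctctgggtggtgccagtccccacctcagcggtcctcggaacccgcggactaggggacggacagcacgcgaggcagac
There are no capitals in it. Neither GGAATG (or CATTCC on the other strand), the core bound by TEAD proteins, nor TGANTCA, the AP-1 site, which reads the same on both strands, occurs in these letters. Of 35116 RefSeq promoter windows of the same length, 11.9% held GGAATG and 6.57% held TGANTCA. The window is rich in G and C (68.4%). The promoters of EGFR, AREG and HBEGF also had no match to either motif, and that of EREG had 1 to GGAATG. No listed summit lay within 1 kb of these 4 starts. These matches describe letters in 250 bases, not binding, and the sequences under the distal peaks were not analysed here. The MET peak was 1499 bp wide, so most of it lay outside the 250 bases shown. Whether its summit lay within them was not determined, so the letters do not show whether an AP-1 site lies under it.

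Across the regions with TAZ, the summits of the other factors mostly fell within 100 bp of it. YAP and TAZ summits were 0 to 40 bp apart in 10 regions (median 13 bp, against 17 bp over all 6919 regions with 1 peak of each). TAZ and TEAD4 were 0 to 665 bp apart in 9 regions (median 12 bp, against 17 bp). TAZ and JUN were 2 to 549 bp apart in 11 regions (median 36 bp, against 27 bp). The 2 wide separations were the TEAD4 summit of EGFR at 46.2 kb and the JUN summit of HBEGF at 23.7 kb.

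**Figure D4:**
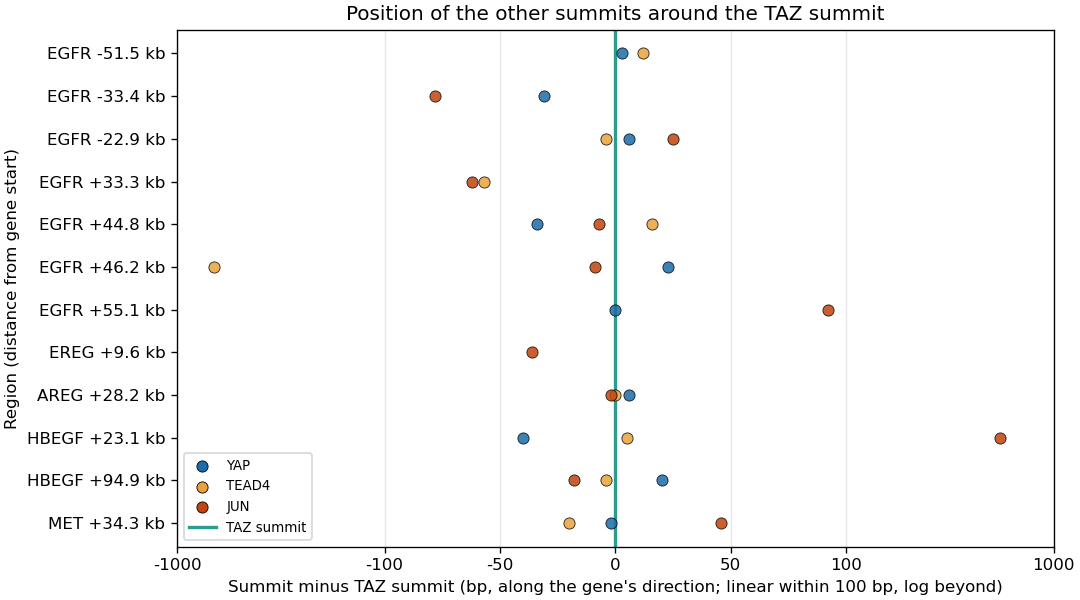
Rows are the 12 regions that hold a TAZ peak, named by gene and distance from its start. Points give the position of the YAP, TEAD4 and JUN summits relative to the TAZ summit in bp along the gene's strand (horizontal axis, linear within 100 bp and logarithmic beyond). Points lie within 100 bp of TAZ except for TEAD4 at EGFR +46.2 kb and JUN at HBEGF +23.1 kb.

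In enrichment the members as a group were near the lists they came from. The median was 6.79 for the 11 YAP peaks against 7.35 for the list, 7.19 against 6.96 for the 12 TAZ peaks, 7.33 against 7.20 for the 10 TEAD4 peaks and 13.2 against 11.7 for the 29 JUN peaks. In the top 5% of their list were 3 of the 29 JUN peaks (5.00% of the list by construction), 2 of them at EREG and 1 at EGFR, and no YAP, TAZ or TEAD4 peak. Ranked by p the JUN peaks in the top 5% were also 3, but 2 of them at EGFR and 1 at EREG. JUN enrichment at the 7 regions of all 4 factors ranged from 9.61 to 21.0 with a median of 15.2 (14.2 over all 4284 such regions). At the 18 regions of JUN alone it ranged from 6.83 to 26.4 with a median of 10.5 (11.0 over all 16291).

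The order of the genes by their most enriched peak differed between the lists. For YAP it was EGFR (12.9), HBEGF (10.2), AREG (9.73) and MET (8.30), with EREG not listed. For TAZ it was EGFR (15.0), AREG (11.1), MET (9.09), HBEGF (8.77) and EREG (6.38). TEAD4 was highest at AREG (13.0), then EGFR (11.3), MET (9.53) and HBEGF (8.62). JUN was highest at EREG (28.6), then EGFR (21.8), HBEGF (18.0), MET (17.5) and AREG (13.2). With no spread between replicates, it cannot be said which neighbours in these orders differ. A maximum also tends to be higher where more peaks are listed, and EGFR had 6 YAP peaks against 1 at AREG and at MET. By the median peak EGFR was lowest for YAP, at 6.21 against 6.79 at HBEGF, 8.30 at MET and 9.73 at AREG. It was lowest by median for TEAD4 too (5.73), and for TAZ (6.80) it stood above EREG only. For JUN the order by median was unchanged, from EREG (27.5) and EGFR (16.5) to AREG (10.5).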

How the data were processed

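Peaks of YAP, TAZ, TEAD4 and JUN were analysed from 1 deposited list per factor. The submitters' processing notes name hg19 as the build and list MACS2 2.0.10, SAMtools, Bowtie 0.12.7 and CASAVA. Per the labels, peaks were called against 2 pooled IgG libraries within the IDR framework, which keeps peaks that recur between replicates. The series has 3 mouse IgG libraries, and which of them were pooled for TEAD4 and JUN is not stated here. The list names carry an IDR value of 0.01. The deposited fold enrichment over IgG (a ratio) and the deposited −log10 p-value were computed by the authors for each peak and serve here to rank and describe it within its list. The summit is the peak start plus the deposited offset.

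Here, summits within 100 kb of the 5 gene starts were collected, peaks overlapping by at least 1 bp were merged, and shares were given Clopper-Pearson 95% intervals (Python 3.11.15, SciPy 1.17.1). The steps were checked on simulated peaks. No test was run, since there are no values per replicate. Each gene's nearest region, its best-ranked region of most factors and regions with a peak in the top 5% are described in full. The genes, rules and lists were chosen with earlier results of these data known. Alternatives were windows of 50 and 200 kb, summits joined within 200 bp or by 50% reciprocal overlap, lists cut to equal length or to their stronger 50%, peak centres, ranks by p, and each gene left out. The other ligands and receptors of the pathway, protein sequences and distal sequences were not analysed here.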

Additional observations from a re-analysis of the deposited data

How the results depend on the processing

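Of 82 alternative values for 17 results, 66 stayed within 1.5 times the reported count or within the binomial interval of the reported share or rank, and 16 did not. For the rank of a single peak such an interval measures no sampling error and served only as a narrow cut-off. Of the 5 alternatives for ranks, 1 stayed within it. The 66 are not a measure of stability. At EREG the count of 0 regions of all 4 factors could not rise under a stricter overlap, shorter lists or a narrower window. For such small counts the limit of 1.5 times is coarse: 2 regions in place of 3 at EGFR counted as kept. For the number of peaks, the stronger 50% of each list gave 14 at EGFR and 7 at MET, lists of equal length gave 3 at AREG and 5 at MET, a distance of 50 kb gave 10 at HBEGF, and one of 200 kb gave 30 at MET. For regions of all 4 factors, the stronger 50% gave 1 at EGFR, equal list length gave 0 at AREG, joining summits within 200 bp gave 1 at HBEGF, as did a distance of 50 kb, and a distance of 200 kb gave 3 at MET. The share of regions with JUN alone was 22.2% with lists of equal length. Without the regions of EGFR it was 70.8% and without those of MET 43.5%. Both lie inside the interval of the reported 56.3%, but that interval is wide and these sets are parts of the same regions. By gene the share ran from 12.5% at EGFR to 88.9% at MET, so the pooled share depended on which genes were included. The share with all 4 factors ranged from 14.7% with summits within 200 bp to 29.4% with the stronger 50% of each list. Shares over all regions are not given for these alternatives. Ranked by −log10 p, the best peak stood at top 1.92% for EGFR, 3.37% for EREG, 9.51% for HBEGF and 18.9% for MET. Shorter lists and narrower windows hold fewer peaks by construction.

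No paired analysis was possible because each list covers both replicates, and no replicate was left out for the same reason. The lists give no read depth.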

Other observations

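The numbers in the peak names give an upper limit for candidate peaks that the authors' lists leave out, if these numbers count all candidates. Between the listed peaks that flank each 100 kb window, at most 10 YAP, 10 TAZ, 8 TEAD4 and 23 JUN candidates were unlisted around EGFR. Around MET the limits were 7 YAP, 11 TAZ, 4 TEAD4 and 11 JUN candidates, beside 9 listed JUN peaks and 1 of each other factor. HBEGF had limits of 35 YAP, 59 TAZ, 29 TEAD4 and 20 JUN candidates. The flanking peaks can lie well outside the window, so these are limits and not counts within it.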
